A study of Mus musculus with 2 samples.

Results

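First intron transcripts are segments of nascent RNA that lie in the intron nearest to the start of a gene. They were taken from both lists of called transcripts as the entries whose annotation placed them in intron 1 of a gene and whose detailed annotation named no repeat element. The rule held 7128 of the 43122 transcripts of the control library, or 16.5% (95% Wilson interval 16.2 to 16.9%). After IL-4 it held 9027 of 51365, or 17.6% (17.2 to 17.9%). The cells were bone marrow-derived macrophages (BMDMs) of wild-type mice 8 to 12 weeks old, differentiated over 6 days with supernatant of the fibroblast line L929 as a source of the growth factor M-CSF. Both conditions share this background. The control cells received no cytokine, and the others received 20 ng/ml of interleukin-4 (IL-4) for 1 hr. The assay was GRO-seq (global run-on followed by sequencing), in which engaged polymerases extend their RNA with a bromine-tagged nucleotide and the tagged RNA is captured and sequenced. Duplicate run-on reactions were pooled before sequencing, so each condition has 1 library and no replicate, and no difference between the conditions could be tested.

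An intron is removed from the finished messenger RNA, so signal in it marks polymerase at work rather than stored RNA. The first intron is usually the longest of a gene, it follows the zone where polymerase pauses before productive elongation, and it often holds enhancers and alternative promoters. A polymerase released after a stimulus has to cross this intron before it reaches the rest of the gene. IL-4 acts through its receptor and Janus kinases on STAT6, a transcription factor that enters the nucleus within minutes. It moves macrophages toward the alternative, tissue-repair state and lowers part of the inflammatory programme. The comparison asks where in first introns nascent transcripts were found before and after this signal.

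The score of a transcript was the one measurement in the files. It was rounded to 0.1, its scaling to depth and to length was not stated, and the depth of the libraries is unknown. The 95% intervals below treat the transcripts of a library as a sample and carry nothing on the spread between cultures. The IL-4 library as a whole held 1.19 times as many transcripts as the control, and they were longer, at a median length of 312 bp against 227 bp. Its median score was 0.2 against 0.3. Macrophage markers had transcripts for 8 of 10 genes in each library, with summed top scores of 25.4 in control and 23.4 after IL-4. Of 8 fibroblast markers none had a transcript in either library, and of 8 T cell and 8 B cell markers 1 each did (Cd8a at 0.6 and 0.8, Cd79a at 0.4 in both). None of these 3 lists had a first intron transcript. Of 8 granulocyte progenitor markers 3 had a transcript in each library, with summed top scores of 1.4 and 0.7.

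Genome sequence was at hand only upstream of annotated starts, from the RefSeq promoter table of GRCm38.p6, the build of the files. Where another annotated start lies in or near a first intron, these bases are also bases of the intron, and 6 such stretches are printed to show what the transcripts were made from. They were chosen after their values were seen, and none overlaps an annotated exon of GENCODE M21. Each is written 5′ to 3′ on the strand of the transcript, and capitals mark bases inside transcripts of both libraries. The first, in Wdfy2, which encodes an endosomal FYVE-domain protein, is chr14:62838532-62838781 on the plus strand and lay in transcripts that scored 1.0 in control and 1.5 after IL-4. The second, in Apoe, which encodes apolipoprotein E, is chr7:19698672-19698871 on the minus strand, with scores of 0.9 and 0.3. The third, in Csf3r, the receptor of granulocyte colony-stimulating factor, is chr4:126024796-126024904 on the plus strand, with 0.3 and 1.0. The fourth, in Itsn2, which encodes an endocytic scaffold protein, is chr12:4593732-4593918 on the plus strand, with 3.0 after IL-4 and 1.4 in control, where the transcript was labelled with a repeat. The fifth, in Zdhhc14, which encodes a palmitoyl transferase, is chr17:5527483-5527611 on the plus strand and lay in a control transcript of 0.3 with none after IL-4. The sixth, in Atp6v0a1, a subunit of the proton pump of lysosomes, is chr11:101010148-101010397 on the plus strand and lay in an IL-4 transcript of 1.0 with none in control.
Wdfy2 intron 1: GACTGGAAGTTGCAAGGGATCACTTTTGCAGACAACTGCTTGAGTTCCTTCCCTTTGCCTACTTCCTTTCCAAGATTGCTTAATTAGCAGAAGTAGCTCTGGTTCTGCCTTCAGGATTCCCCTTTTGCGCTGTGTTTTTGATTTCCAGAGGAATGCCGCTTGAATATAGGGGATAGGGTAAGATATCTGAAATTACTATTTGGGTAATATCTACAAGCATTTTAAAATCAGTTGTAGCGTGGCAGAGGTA
Apoe intron 1: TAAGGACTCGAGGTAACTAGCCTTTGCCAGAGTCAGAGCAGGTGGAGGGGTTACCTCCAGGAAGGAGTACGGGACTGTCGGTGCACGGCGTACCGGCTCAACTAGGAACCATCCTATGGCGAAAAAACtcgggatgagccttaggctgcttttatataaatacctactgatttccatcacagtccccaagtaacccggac
Csf3r intron 1: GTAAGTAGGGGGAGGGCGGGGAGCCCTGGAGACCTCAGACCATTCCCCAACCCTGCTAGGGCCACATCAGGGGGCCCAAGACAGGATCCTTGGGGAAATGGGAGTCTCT
Itsn2 intron 1: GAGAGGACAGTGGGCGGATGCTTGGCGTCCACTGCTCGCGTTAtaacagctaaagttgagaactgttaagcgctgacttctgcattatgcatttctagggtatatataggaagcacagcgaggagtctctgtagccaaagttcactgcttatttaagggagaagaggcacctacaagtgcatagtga
Zdhhc14 intron 1: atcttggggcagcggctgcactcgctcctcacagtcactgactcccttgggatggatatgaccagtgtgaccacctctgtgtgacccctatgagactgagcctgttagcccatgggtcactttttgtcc
Atp6v0a1 intron 1: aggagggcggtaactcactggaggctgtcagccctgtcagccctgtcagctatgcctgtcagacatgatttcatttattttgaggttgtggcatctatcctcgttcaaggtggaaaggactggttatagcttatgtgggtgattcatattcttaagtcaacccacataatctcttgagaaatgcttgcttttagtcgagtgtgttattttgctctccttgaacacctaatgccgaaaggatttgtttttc

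The promoters of 3 genes are shown as the 250 bases before a start upstream of the first intron values given below. Socs1 was the host of a locus with a large increase, Pitpnc1 of a locus with a large decrease, and Abca1, the cholesterol exporter of macrophages, had a lower score after IL-4. The Socs1 window is chr16:10785537-10785786 on the minus strand and the Abca1 window is chr4:53159896-53160145 on the minus strand. The Pitpnc1 window is chr11:107470721-107470970 on the minus strand. They were chosen after the values were seen, from windows that overlap no annotated exon. Both strands were searched for the STAT-type palindromes TTCNNNNGAA and TTCNNNGAA, of which the first has the spacing of 4 bases that STAT6 is known to prefer. None of the 3 windows holds a match, so all letters are in lower case.
Socs1 promoter: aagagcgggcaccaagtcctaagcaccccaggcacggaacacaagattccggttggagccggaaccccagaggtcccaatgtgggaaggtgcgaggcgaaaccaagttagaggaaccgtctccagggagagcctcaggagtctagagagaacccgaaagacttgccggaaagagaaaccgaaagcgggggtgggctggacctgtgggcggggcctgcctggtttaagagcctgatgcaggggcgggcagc
Abca1 promoter: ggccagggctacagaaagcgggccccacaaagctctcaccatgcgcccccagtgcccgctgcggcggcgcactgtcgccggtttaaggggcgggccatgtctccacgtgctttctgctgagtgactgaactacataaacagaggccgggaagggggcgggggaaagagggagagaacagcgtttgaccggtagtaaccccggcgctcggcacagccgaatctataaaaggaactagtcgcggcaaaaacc
Pitpnc1 promoter: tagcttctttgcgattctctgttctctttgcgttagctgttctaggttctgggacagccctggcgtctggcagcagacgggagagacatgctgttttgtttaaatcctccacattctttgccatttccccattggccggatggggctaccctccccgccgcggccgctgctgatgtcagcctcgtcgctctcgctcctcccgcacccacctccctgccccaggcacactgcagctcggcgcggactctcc

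Over all 32851 windows of 250 bases, 5.85% held TTCNNNNGAA and 7.02% held TTCNNNGAA. Of the 4409 windows of genes named by a first intron transcript, 4.63% and 5.42% did. Among these, genes that the study grouped as higher in mRNA after IL-4 (Clusters A to D, described below) had TTCNNNNGAA in 8.66% of 231 windows for Clusters A to C and in 3.42% of 117 windows for Cluster D, and TTCNNNGAA in 3.90% and 5.13%. For those it grouped as lower (Cluster E) the share was 5.28% for either spacing, over 265 windows. These are matches of letters and not measured binding.

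First intron transcripts were short segments on the strand of their gene. They carried the names of 3211 genes in control and 3630 after IL-4, where the name is that of the nearest start. Of those with a known host gene, 92.1% and 92.5% bore the host's name. The midpoint of 97.8% and 98.3% of all first intron transcripts fell inside a first intron of the host gene in GENCODE M21. Of those with a known host strand, 95.3% lay on that strand in either library, against 39.8% and 34.0% of transcripts of the promoter class. Later introns without repeats had slightly larger shares on the host's strand (control 96.5%, IL-4 97.1%), as did first introns in repeats (98.6% for each library). All transcripts together reached 89.1% and 89.3%, so the strand did not set first introns apart from other introns. The antisense first intron transcripts numbered 330 and 416, of which 112 and 116 were under 500 bp from a transcription start site (TSS). The control transcripts had a median length of 235 bp and those of the IL-4 library 340 bp (336 to 343 bp), and the median score was 0.3 and 0.2. A score of 1 or more was held by 461 (6.47%) and 329 (3.64%). In control they covered 2.01 Mb at a mean score, weighted by transcript length, of 0.432. After IL-4 they covered 3.60 Mb at 0.332, which is 1.79 times the length, where the covered length of all transcripts was 1.71 times that of control. The number of first intron transcripts was 1.27 times the control number, as it was for later introns without repeats (9732 and 12370), while promoter transcripts were 1.12 times as many (4650 and 5225).

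Distance to the nearest TSS ranged widely, up to 227800 bp in control and 205978 bp in the IL-4 library. Its median in control was 3225 bp (3010 to 3453 bp), and with IL-4 3741 bp (3509 to 4063 bp), so that the intervals did not overlap. Quartiles were 488 and 12462 bp in control and 506 and 13994 bp after IL-4. The lowest value was 101 bp in each library, because nearer transcripts belong to the promoter class. The class under 500 bp was the largest, with 1805 control and 2242 IL-4 transcripts, and 70.4% and 69.9% of these lay in a CpG island. That share was 1.83% and 2.34% at 2 to 5 kb. Beyond 20 kb the IL-4 library gained most in proportion. Between 20 and 50 kb it held 1247 transcripts against 845, a ratio of 1.48, and the share of this class went from 11.9% (11.1 to 12.6%) to 13.8% (13.1 to 14.5%). Between 50 and 100 kb it held 355 against 219, a ratio of 1.62. The ratio was 1.13 to 1.27 in the classes from 500 bp to 20 kb and 1.24 under 500 bp, and at 100 kb or more it was 1.35 with 50 against 37 transcripts.

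The order of these medians depended on which scores were kept. It turned when both libraries were limited to scores of 0.3 or more, with median distances of 2593 bp for control and 1680.5 bp for IL-4. The same happened in equal numbers of the highest-scoring transcripts of each library, with 2703 and 1838 bp. The larger median distance after IL-4 was thus seen only with the transcripts of low score included.

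**Figure D1:**
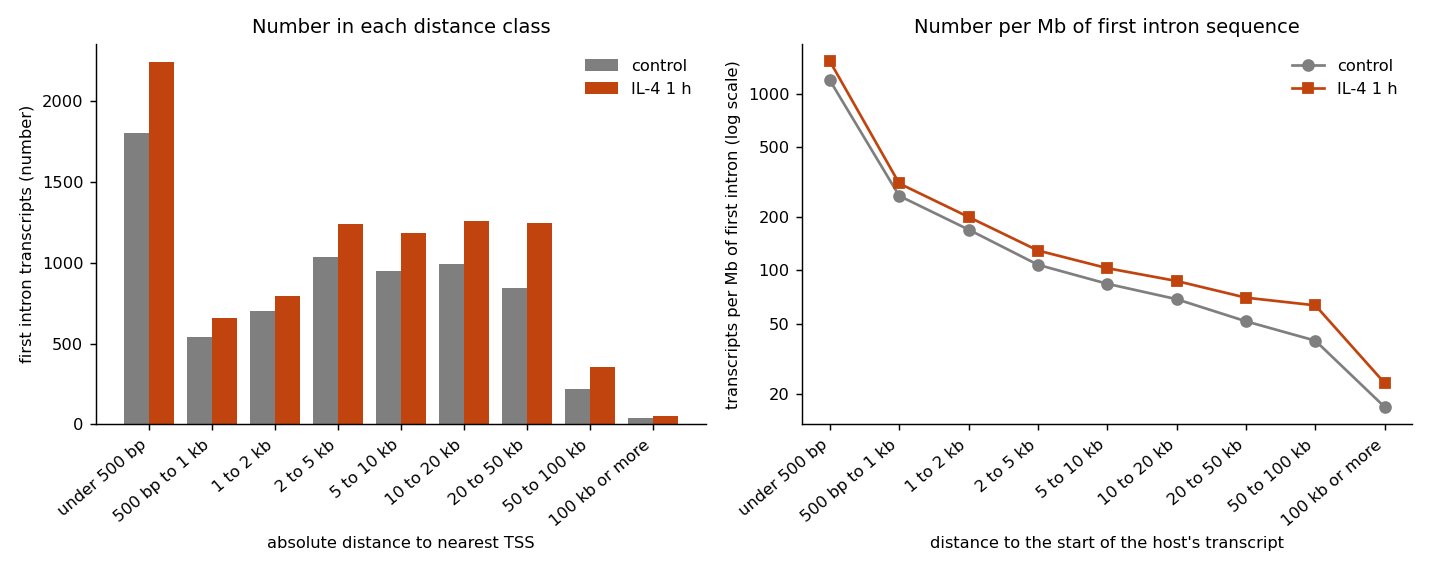
The left panel gives the number of first intron transcripts in each class of absolute distance to the nearest TSS, for the control library (grey) and the IL-4 1 hr library (red). The right panel gives the number per Mb of first intron (log axis) by distance from the start of the host's transcript. The IL-4 library is above control in every class, and the density falls from 1190 and 1525 per Mb under 500 bp to 16.9 and 23.1 per Mb at 100 kb or more.

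Long introns offer more sequence far from the TSS, so the numbers were also set per Mb of first intron, using 1 intron for each of 4267 host genes. Here distance was counted from the start of the host's own transcript. The density fell with distance in both libraries. It was 1190 per Mb in control and 1525 per Mb after IL-4 under 500 bp, 108 and 130 per Mb at 2 to 5 kb, 51.6 and 70.2 per Mb at 20 to 50 kb, and 16.9 and 23.1 per Mb at 100 kb or more. The summed length of transcripts centred within 500 bp of the start was 42.7% and 64.5% of the first intron bases there. At 100 kb or farther it was 0.396% and 0.759%. Lengths were not cut at the ends of the intron or class, so these are not shares of bases covered. The hosts were chosen because they held such a transcript, so these densities are not those of all genes.

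The strand also varied along the intron. The share on the strand of the host was lowest between 500 bp and 1 kb, at 87.1% in control and 83.5% after IL-4. It was 93.7% and 94.7% under 500 bp, and from 10 kb onward it was between 97.5% and 100% in both libraries.

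A transcript without any overlapping transcript on the same strand of the other library has no counterpart. This held for 34.6% of first intron transcripts in control (33.5 to 35.7%) and for 46.1% after IL-4 (45.1 to 47.1%). For later introns the shares were 44.9% and 56.8%, and over all transcripts 37.4% and 48.1%, so first introns lay near the whole libraries. The first intron share grew with distance, from 13.3% in control and 21.1% after IL-4 under 500 bp to 62.2% and 70.0% at 100 kb or more, where it rests on 37 and 50 transcripts. It fell with score. Of transcripts scoring at least 0.3, 19.5% in control and 17.7% after IL-4 lacked a counterpart, and of those scoring at least 1, 4.34% and 3.65% did. The higher share after IL-4 was thus not seen among transcripts scoring 0.3 or more.

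**Figure D2:**
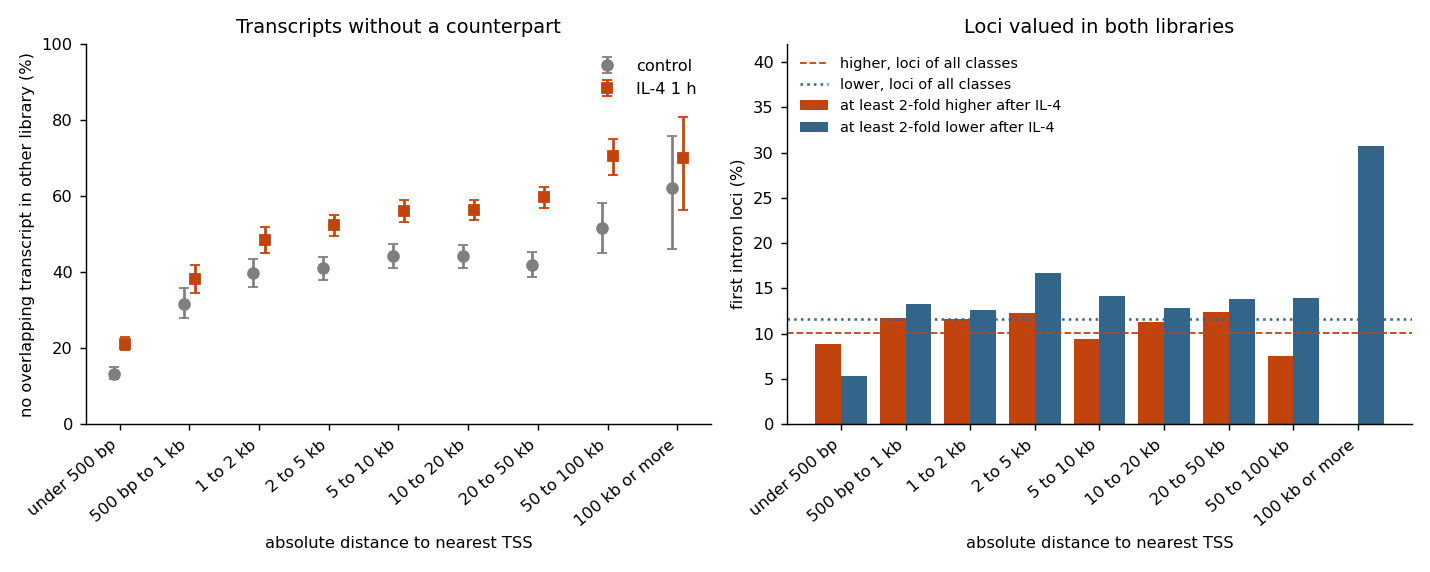
Left, the share of first intron transcripts with no overlapping transcript on the same strand of the other library, by distance to the nearest TSS, with 95% Wilson intervals. Right, the share of first intron loci at least 2-fold higher (red) or lower (blue) after IL-4, with dashed and dotted lines at the shares over loci of all classes, 10.1% and 11.6%; at 100 kb or more there were 13 loci, 0 of them higher and 4 lower.

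To compare levels at the same place, transcripts of both libraries that overlapped on a strand were joined into loci, and a locus took its highest score in each library. Ratios (IL-4 to control, log2) were centred by subtracting -0.32, the median over all 26146 loci of any class. Of these, 3599 loci held a first intron transcript in both libraries. Their median centred ratio was 0.06 with an SD of 0.81 across loci. At least 2-fold higher were 377 loci, or 10.5%, where 10.1% of loci of all classes were. At least 2-fold lower were 401, or 11.1%, where the share over all classes was 11.6%. First intron loci as a whole thus stood at the background in both directions. The printed scores were equal in 854 of them (23.7%), and the rounding of the score leaves 128 higher and 94 lower loci past 2-fold at every value it allows.

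The balance of higher and lower loci varied with distance. Under 500 bp, 109 of 1226 loci were higher and 66 lower, with a median centred ratio of 0.32. That value is the centring offset itself, so the median stood for equal printed scores in both libraries. From 2 to 5 kb, 57 of 462 were higher and 77 lower, with a median of -0.26. In the classes between 500 bp and 2 kb and between 5 and 50 kb the medians lay between -0.09 and 0.03. The deepest classes did not follow one direction. The median was 0.32, again the offset, over 79 loci from 50 to 100 kb, and -0.68 over 13 loci at 100 kb or more. Near the TSS the shares were 8.89% higher and 5.38% lower, and at 2 to 5 kb 12.3% and 16.7%. Among loci with a score of at least 1 in a library, 56 of 422 were higher (13.3%) and 77 lower (18.2%), beside 10.7% and 19.6% of the 3424 such loci of all classes.

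The largest increases at a score of at least 1 were at Zbtb44, Socs1, Rnf19b and Ahcyl2. Zbtb44 encodes a zinc finger protein of the BTB family. Its locus on chr9:31038666-31038970, plus strand, 8174 bp from the TSS in intron 1 of 5, had a score of 0.1 without and 1.0 with IL-4. The centred ratio was 3.64, for which rounding of the scores allows 2.98 to 4.71, and the IL-4 transcript was 36 bp long inside a control transcript of 305 bp. Over all transcripts of the gene Zbtb44 scored 1.0 in control and 1.2 after IL-4 (0.64). Socs1 encodes a suppressor of cytokine signalling that STAT factors induce and that blocks Janus kinases. Its first intron transcript scored 0.3 at chr16:10785211-10785498 in control and 2.0 at chr16:10784996-10785530 after IL-4, on the minus strand, just downstream of the promoter printed above. A transcript of exon 2 chained to it scored 2.5, which set the ratio of the locus to 3.38.

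Rnf19b, which encodes a RING-type ubiquitin ligase known from cytolytic lymphocytes, held 2 of the 5 loci. At chr4:129059057-129060208, plus strand, the score was 0.4 in control and 2.9 after IL-4 (3.18). At chr4:129060537-129060949 it was 0.5 and 2.3 (2.52). Its control transcripts without repeats scored 0.4, 0.5 and 0.2, and its 7 IL-4 transcripts scored between 0.2 and 6.2 out to 13402 bp from the TSS. At the locus of the 6.2 a control transcript labelled with a repeat scored 1.7. Over any transcript of its loci the gene thus had 1.7 and 6.2 (2.25). The IL-4 scores above 0.5 lay at several depths of the intron, and 2 IL-4 transcripts beyond 8 kb scored 0.2. Ahcyl2, which encodes a protein related to adenosylhomocysteinase, had 0.5 and 2.1 at chr6:29793664-29794066, plus strand, 25372 bp from the TSS (2.39). It held 2 first intron transcripts in control and 23 after IL-4.

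The largest decreases were at Pitpnc1, Osbpl8, Zdhhc14 and Ctsd. Pitpnc1 encodes a phosphatidylinositol transfer protein. Its locus at chr11:107414096-107414267, minus strand, 56547 bp from the TSS in intron 1 of 9, scored 5.1 in control and 0.5 after IL-4 (-3.03, rounding range -3.19 to -2.88). Osbpl8, an oxysterol-binding protein that moves lipids between membranes, scored 1.0 and 0.1 at chr10:111188542-111188781, plus strand (-3.00, rounding range -4.07 to -2.34). Zdhhc14 held 2 of the 5 loci, at chr17:5610385-5610844 with 3.5 and 0.4 (-2.81) and at chr17:5522158-5522673 with 1.6 and 0.2 (-2.68), both on the plus strand. These lie 118014 and 29815 bp from the TSS, so the score was lower at both depths of the same intron. Ctsd encodes cathepsin D, a lysosomal protease. Its locus on chr7, minus strand, scored 2.8 at chr7:142386661-142387553 in control and 0.4 at chr7:142387350-142387859 after IL-4 (-2.49).

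**Figure D3:**
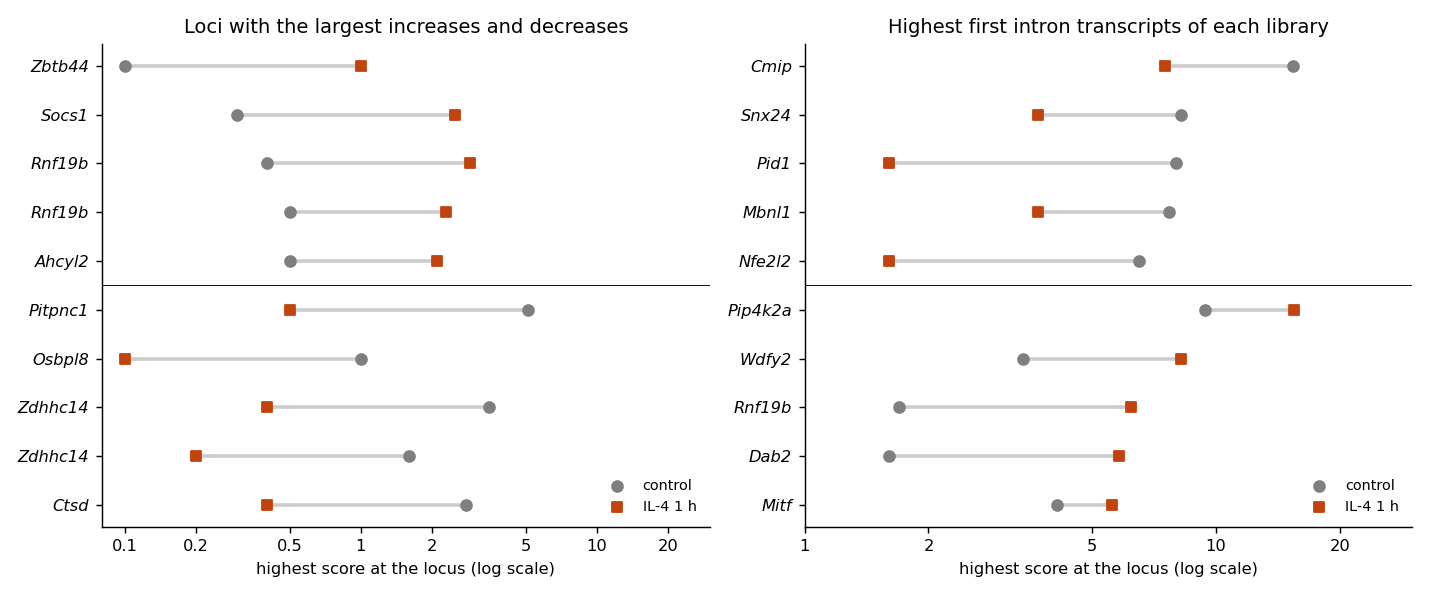
Highest score at a locus (log axis) in the control library (grey circles) and the IL-4 1 hr library (red squares), 1 library each. Left, the 5 loci with the largest increases and the 5 with the largest decreases; right, the loci of the 5 highest first intron transcripts of each library, where the other library's point is any transcript of the locus, for example 15.4 and 7.5 at Cmip.

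The highest first intron transcripts were in Cmip, Snx24, Pid1, Mbnl1 and Nfe2l2 in control and in Pip4k2a, Wdfy2, Rnf19b, Dab2 and Mitf after IL-4. In control, Cmip scored 15.4, Snx24 8.2, Pid1 8.0, Mbnl1 7.7 and Nfe2l2 6.5. At the same loci the IL-4 library scored 7.5, 3.7, 1.6, 3.7 and 1.6. Centred log2 ratios were -0.72 at Cmip, -0.83 at Snx24, -2.0 at Pid1, -0.74 at Mbnl1 and -1.70 at Nfe2l2. Pid1, an adaptor protein of insulin and lipoprotein receptors, and Nfe2l2, the NRF2 factor of the antioxidant response, were past 2-fold. Both also held fewer transcripts along the intron. Pid1 held 19 transcripts in control and 8 after IL-4, and Nfe2l2 held 15 and 7. In Nfe2l2 the transcript 747 bp from the TSS scored 1.1 in control, as did the one at 684 bp after IL-4, while the others ranged from 0.2 to 6.5 in control and from 0.1 to 0.2 after IL-4.

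After IL-4, Pip4k2a scored 15.5, Wdfy2 8.2, Rnf19b 6.2, Dab2 5.8 and Mitf 5.6, against 9.4, 3.4, 1.7, 1.6 and 4.1 in control at the same loci. The centred ratios were 1.04 at Pip4k2a, a phosphoinositide kinase, 1.59 at Wdfy2, 2.19 at Rnf19b, 2.18 at Dab2 and 0.77 at Mitf. Dab2 encodes an endocytic adaptor found in alternatively polarized macrophages. Its top transcript ran for 2254 bp at chr15:6386763-6389016, plus strand, with its midpoint 1141 bp from a TSS, and its first intron held 3 transcripts in control and 23 after IL-4. In 7 of these 10 loci (all but Mbnl1, Wdfy2 and Mitf) the highest transcript of the other library was labelled with a repeat, a label that is read at the midpoint of each transcript. By the rule it was left out, although it lay in the same intron. At Dab2 the control locus also held a first intron transcript without a repeat, at 0.3.

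The same held beyond these loci. Of first intron transcripts with a counterpart, 79.7% in control and 75.4% after IL-4 had one of the same class. Where the counterpart was of another class, it was a first intron transcript in a repeat in 62.1% and 49.5% of cases. Values per gene are therefore given both over first intron transcripts without repeats and over any transcript of the loci that hold one.

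Most genes held a single first intron transcript, 2016 of 3211 in control and 2239 of 3630 after IL-4. Few genes held many. In control 88 genes had 10 or more, with 20.2% of all, and after IL-4 146 genes had 10 or more, with 29.3%. Ptprj, a receptor-type tyrosine phosphatase, held 59 and 68. Cmip held 44 and 48, and Rreb1, a zinc finger factor, held 30 and 35. Mitf, the factor of osteoclasts, melanocytes and macrophages from the microphthalmia family, held 35 in control and 71 after IL-4, the latter between 581 and 59804 bp from a TSS. Zdhhc14 held 49 and 7.

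The gains in number were large in a few introns. Fmnl2, a formin that elongates actin filaments, held 0 first intron transcripts in control and 61 after IL-4, out to 120595 bp. The highest IL-4 score was 3.3, and control transcripts of other classes at the same loci reached 0.5. Asap1, which encodes a GTPase-activating protein for ARF proteins at focal adhesions, held 12 and 64, with top scores of 1.0 and 2.0. Dock10, an exchange factor for small GTPases, held 4 and 49, with 0.6 and 1.9. In Pip4k2a the number was 23 and 48, and in Wdfy2 14 and 32.

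**Figure D4:**
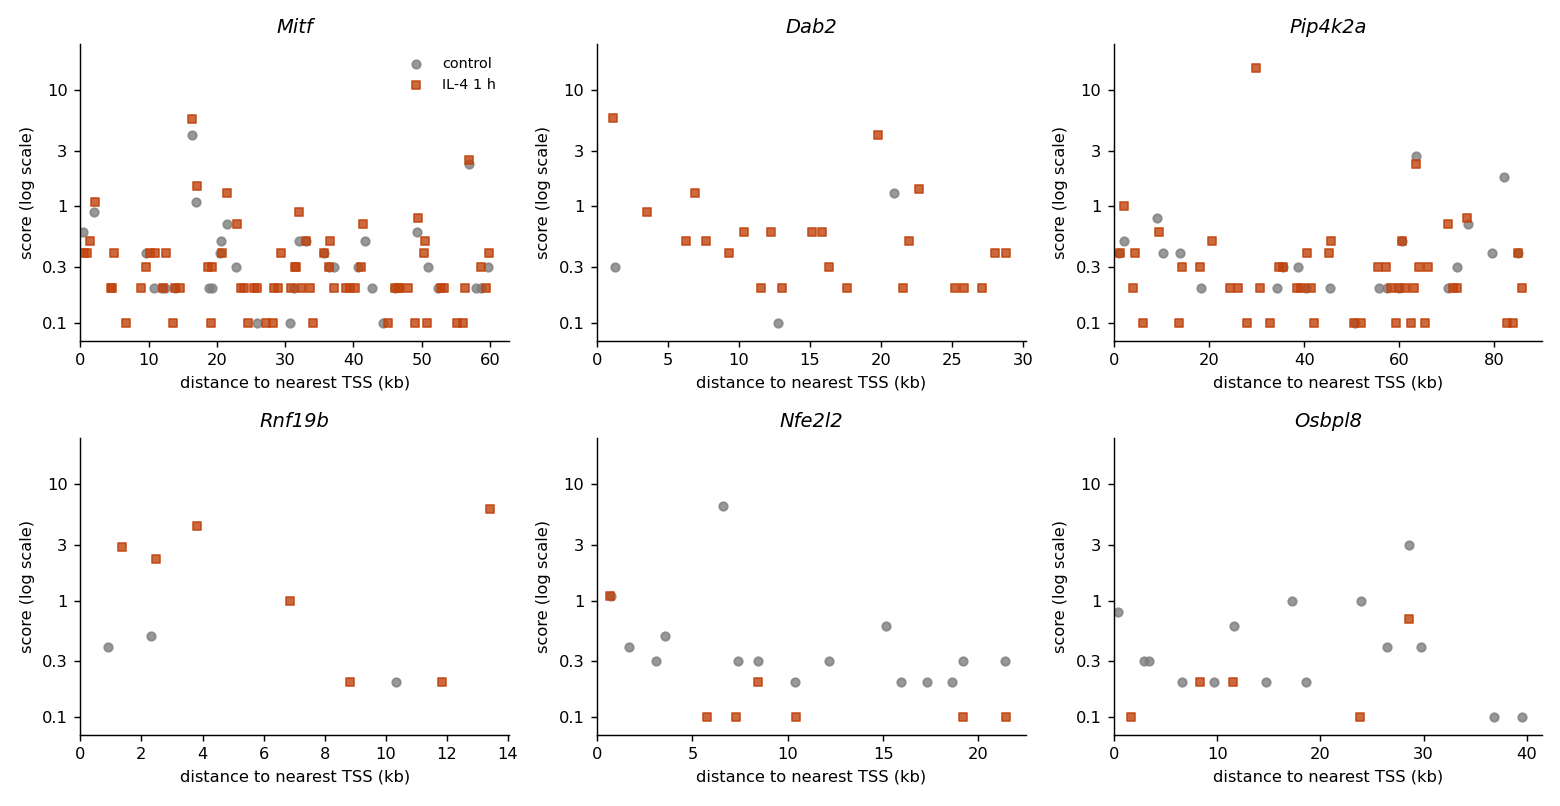
Score (log axis) of every first intron transcript without a repeat against its distance to the nearest TSS, for 6 genes, in control (grey circles) and after IL-4 (red squares). Mitf holds 35 and 71, Dab2 3 and 23, Pip4k2a 23 and 48 and Rnf19b 3 and 7, with more red squares than grey circles; Nfe2l2 holds 15 and 7 and Osbpl8 15 and 5, with fewer.

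Over genes, 4415 held a first intron transcript in at least 1 library, 2426 in both, 785 in control alone and 1204 after IL-4 alone. Of the 785, 294 had a transcript of another class at the locus after IL-4, and of the 1204, 517 had one in control. Gene values were centred on the median over genes valued with all their transcripts (-0.38). Of the 2426 genes, 287 (11.8%) were at least 2-fold higher and 282 (11.6%) lower. Over all transcripts, 8.06% of 8879 genes were higher and 8.62% lower. Taken over any transcript of the loci, 289 of 3237 genes were higher (8.93%) and 250 lower (7.72%). Of the 287 higher genes, 192 were past 2-fold in the same direction by this second value and 2 in the opposite one, and of the 282 lower, 191 and 2.

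The study grouped genes by their mRNA response to IL-4 in other libraries of the same macrophages. Its mRNA time course ran well past the 1 hr of the run-on libraries, and it describes Clusters A to C as immediate early genes. Those groups were set beside the first introns without use of the GRO-seq scores. The groups were chosen by the study in the same experiment, so their direction is not independent of the treatment's known effect in these cells. Clusters A to D hold genes listed as higher in mRNA after IL-4 and Cluster E genes listed as lower. From its GRO-seq at 1 hr the study itself reported less nascent RNA along Cluster E genes and more along genes of Clusters A to C. The cluster results below are thus not separate from that report. In Cluster A, 10 of 32 genes had a first intron transcript, 9 of them after IL-4 alone. In Cluster B, 67 of 164 had one, 44 after IL-4 alone and 1 in control alone. In Cluster C it was 144 of 292, 68 after IL-4 alone and 2 in control alone. In Cluster D it was 103 of 501, with 32 and 16. In Cluster E it was 266 of 625, with 35 after IL-4 alone and 85 in control alone. Over all 4415 genes 27.3% had them after IL-4 alone and 17.8% in control alone.

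Numbers of transcripts followed the same order. Cluster A held 1 and 17 first intron transcripts in control and with IL-4, Cluster B 53 and 346, Cluster C 188 and 710, Cluster D 163 and 209 and Cluster E 788 and 449. As ratios these are 6.53 for Cluster B, 3.78 for Cluster C, 1.28 for Cluster D and 0.570 for Cluster E, beside 1.27 over all genes. Of genes with a value in both libraries, 13 of 22 in Cluster B were at least 2-fold higher and 0 lower, with a median centred ratio of 1.25. In Cluster C 30 of 74 were higher and 4 lower (median 0.83), in Cluster D 7 and 5 of 55 (0.03), and in Cluster E 10 and 49 of 146 (-0.62). Over all 2426 genes 11.8% were higher and 11.6% lower with a median of 0.03, and Cluster D, at 12.7% and 9.09%, lay near these shares.

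The ratio of numbers moved with distance. For Cluster B it was 4.93 under 2 kb (15 and 74 transcripts), 4.59 from 2 to 10 kb (22 and 101), 9.36 from 10 to 50 kb (14 and 131) and 20.0 at 50 kb or more (2 and 40). For Cluster C it was 2.38, 4.02, 4.73 and 5.80. For Cluster E it was 0.746 under 2 kb (240 and 179), 0.525, 0.516 and 0.315 at 50 kb or more (73 and 23). Over all genes it was 1.21, 1.22, 1.36 and 1.58. Both the surplus in Clusters B and C and the deficit in Cluster E were thus larger deep in the intron than within 2 kb of a TSS. The counts at 50 kb or more, however, come from few genes with long introns. Transcripts of the same intron are not separate members of a cluster. In Cluster B, Fmnl2 alone held 61 of the 346 IL-4 transcripts, out to 120595 bp, and none in control.

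**Figure D5:**
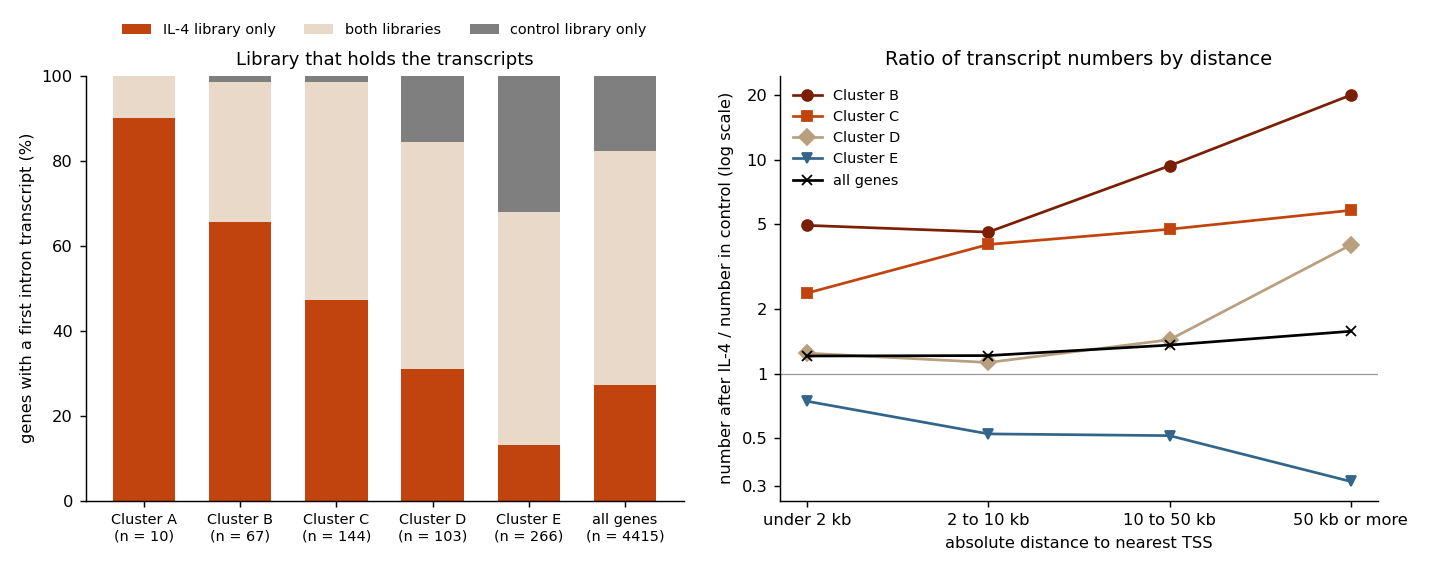
Left, genes with a first intron transcript in each mRNA cluster of the study and over all genes, split into those with them in the IL-4 library alone, in both and in control alone (percent; n is the number of genes). Right, the ratio of the number of first intron transcripts after IL-4 to that in control (log axis) by distance to the nearest TSS; Cluster B goes from 4.93 to 20.0 and Cluster E from 0.746 to 0.315, and Cluster A is left out because control held 1 transcript.

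Several more members of Clusters A to E are named here after their values were seen, from those with the largest gains or losses in number. Of the genes described above, Fmnl2 had the largest gain in Cluster B and Dock10 in Cluster C. Wdfy2 is also in Cluster B, Ahcyl2 and Dab2 are in Cluster C, Socs1 is in Cluster A and Osbpl8 in Cluster E. Their values above are thus counted again in the clusters. In Cluster A, Snn, a small membrane protein, had 0 and 4 first intron transcripts in control and IL-4. In Cluster B, Ppargc1b, a coactivator of mitochondrial genes, had 1 and 23 with top scores of 0.5 and 1.2, Clic4, an intracellular chloride channel protein, had 1 and 14, and St7 had 0 and 13. In Cluster C, Arhgap31, which inactivates CDC42 and RAC1, had 9 and 32 with 1.1 and 1.5, and Pde7b, a phosphodiesterase of cyclic AMP, had 4 and 26. In Cluster D, Tbxas1, the thromboxane synthase, had 5 and 15 with 0.3 and 0.9, and Arhgap25 had 6 and 0. In Cluster E, besides Zdhhc14 and Pid1, Cerk, the ceramide kinase, had 16 and 6 with 1.2 and 0.3, and Slc16a10, an aromatic amino acid transporter, had 10 and 0. Over all transcripts of the gene Tbxas1 scored 1.8 and 1.4, Cerk 1.6 and 1.1, and Slc16a10 3.2 and 0.6. Against the direction of the cluster, 0 and 5 transcripts carried the name of Usp35, a ubiquitin-specific protease. Over any transcript of their loci the scores were 0.3 and 0.7 (1.60). All lay 108483 to 116326 bp from its TSS, outside the gene, and the highest was on the opposite strand. They bore its name as that of the nearest start, so these are not values of a Usp35 intron. Fam107b and Il15, the cytokine interleukin-15, had 0 and 4 each, but over all transcripts of the genes the scores were 0.6 and 0.4 for Fam107b and 0.9 and 0.3 for Il15. Pik3r5, a regulatory subunit of phosphoinositide 3-kinase, had 9 and 13 transcripts with top scores of 0.8 and 4.2. Over any transcript of its loci these were 7.6 and 4.2, so that the higher value after IL-4 is not seen there.

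Among 18 genes of the IL-4 receptor and its feedback, 12 had a first intron transcript. Of 7 valued in both libraries 2 were higher and 1 lower, where 11.8% and 11.6% of all genes were. Il4ra, the receptor's alpha chain, scored 0.6 in control and 1.2 after IL-4 (centred ratio 1.38), with 5 and 8 transcripts. Socs1 was the other gene past 2-fold upward, at 0.3 and 2.0 (3.12). Cish, another inhibitor induced by STAT factors, had 2 transcripts after IL-4 with a top score of 0.6 and none in control. Jak1, the kinase bound to the receptor, was past 2-fold downward at 0.8 and 0.3 (-1.04, rounding range -1.39 to -0.72), with 7 and 4 transcripts. Stat6 itself scored 1.1 and 0.8 (-0.08). Ptpn1, a phosphatase that acts on Janus kinases and STAT6, scored 2.8 in both libraries while its transcripts went from 10 to 20. Socs6, Jak3 and Ptpn6 had first intron transcripts in control alone, at 0.2 to 0.4, but over all transcripts of these genes the IL-4 scores were 0.3 for Socs6, 0.3 for Jak3 and 0.6 for Ptpn6.

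Of 24 genes of alternative polarization, 14 had a first intron transcript, 11 of them after IL-4 alone, where 27.3% of all 4415 genes did. The transcripts numbered 3 in control and 23 after IL-4. The 11 were Tgm2 (top score 0.3), Ccl24 (0.2), Myc (0.2), Clec7a (0.1), Mgl2 (0.1), Slc7a2 (0.3), Irf4 (0.4), Pdcd1lg2 (0.4), Flt1 (0.1), Ahr (0.4) and Batf3 (0.2). They include a transglutaminase, a chemokine, lectin receptors, an arginine transporter, the checkpoint ligand PD-L2 and transcription factors. This list is not separate from the clusters above. At least Mgl2, Slc7a2, Irf4, Pdcd1lg2 and Flt1 are also in Cluster A, and Clec10a is in Cluster B. All 11 scores are low, and 4 of these genes had other transcripts in control. Over all transcripts Irf4 scored 1.7 and 1.2, Batf3 1.7 and 1.8, Mgl2 0.8 and 1.6 and Clec7a 0.2 and 0.3, while the other 7 had none in control. Mgl2 and Clec10a are close copies of each other, so that reads may be split between them. Clec10a scored 0.7 and 1.5 (1.48), but 1.6 and 1.5 over all its transcripts (0.29). Mrc1, the mannose receptor, had 1 transcript at 2.7 in control and 7 with a top score of 1.8 after IL-4, but a chained IL-4 transcript of another class scored 13.1, which puts the locus value at 2.66. Pparg, a lipid-sensing nuclear receptor, scored 0.1 and 0.2 (1.38), for which rounding allows 0.38 to 2.70, and over all its transcripts the ratio was -0.34.

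Of 24 macrophage lineage factors, 13 had first intron transcripts, 128 in control and 177 after IL-4, or 1.38 times as many where the ratio over all genes was 1.27. Mitf alone held 35 of the 128 and 71 of the 177, so most of the gain in number lay in this 1 gene. At scores of 0.3 or more the whole list held 68 and 59. Tfec, a relative of Mitf, scored 0.3 and 1.0 (2.12) with 1 and 6 transcripts. Etv6, a repressor of the ETS family, scored 0.6 and 1.4 (1.60) with 18 and 40 transcripts, but over any transcript of its loci the scores were 1.6 and 1.4 (0.19). Nfe2l2 scored 6.5 and 1.1 (-2.18). Fli1, another ETS factor, scored 1.5 and 0.4 (-1.53), and 1.5 and 0.6 (-0.94) over its loci. Zfhx3, a large homeodomain factor, scored 0.4 and 0.6 with 11 and 3 transcripts, while over its loci it scored 2.2 and 0.6 (-1.50). Irf8, which directs the monocyte lineage, scored 1.7 and 1.8 (0.46). Of the 10 genes with a value in both libraries, 2 were higher and 2 lower, where the shares over all genes were 11.8% and 11.6%. Over loci 1 of 12 was higher and 2 lower, beside 8.93% and 7.72%.

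Of 25 genes of Toll-like receptor and inflammasome signalling, 12 had a first intron transcript, and of 8 valued in both libraries 0 were at least 2-fold higher and 3 lower. Over all genes 11.8% were higher and 11.6% lower. The median centred ratio of the 8 was -0.56. Irak2, a kinase of the receptor complex, scored 1.4 and 0.5 (-1.11, rounding range -1.31 to -0.92). Tlr9, the receptor of unmethylated DNA, scored 0.6 and 0.1 (-2.21), and Tlr8, a receptor of single-stranded RNA, 0.5 and 0.1 (-1.94). Over any transcript of the loci Tlr8 scored 0.5 and 0.3, and 2 of 10 genes were lower, beside 7.72% of all genes. Tlr2, Tlr4 and Rela had first intron transcripts in control alone, at 0.7, 0.2 and 0.6, and Rel, the c-Rel subunit of NF-kappaB, after IL-4 alone with 4 transcripts up to 0.5, 1 of them antisense. Over all its transcripts Rel scored 1.2 in control and 1.9 after IL-4. At Tlr4 and Rela transcripts of other classes scored 0.2 and 0.3 at the same loci after IL-4.

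Of 15 genes of lipid and cholesterol transport, 11 had first intron transcripts, which numbered 58 in control and 38 with IL-4. Of 7 valued in both libraries 0 were higher and 4 lower, with a median of -1.21, where 11.8% and 11.6% of all genes were. Over any transcript of the loci 3 of 8 were lower, with a median of -0.71, beside 7.72% of all genes. Apoe scored 1.7 and 0.3 (-2.12), while over all transcripts of the gene its ratio was 0.26. Lower scores were also held by Osbpl8, at 3.0 and 0.7 (-1.72) with 15 and 5 transcripts, and by Abca1, at 2.4 and 0.6 (-1.62) with 3 and 1. Nceh1, a cholesterol ester hydrolase, scored 0.9 and 0.3 (-1.21), but 0.9 and 0.4 over its loci (-0.79). Rxra, the partner of lipid-sensing nuclear receptors, scored 0.4 and 0.2 (-0.62) with 22 and 14 transcripts. Against the direction of these, Abcg1, another cholesterol exporter, had a first intron transcript after IL-4 alone, at 0.5, and Lpl, lipoprotein lipase, scored 0.6 and 0.8 (0.79). At Abcg1 a control transcript of another class reached 0.4.

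Of the 10 genes that the study's text follows as lower after IL-4, 6 had a first intron transcript. The study's targeted mRNA measurements of these genes were made after longer IL-4 treatment than the 1 hr of the run-on libraries. Smad3, a transcription factor of the TGF-beta pathway, had 6 in control with a top score of 0.3 and none after IL-4. Clec4d, a C-type lectin, had 2, of which 1 was antisense, and Fos and Tlr2 had 1 each, all in control alone. With Smad3, 4 of the 6 genes had them in control alone, where 17.8% of all 4415 genes did. Over all transcripts of the gene Fos scored 0.6 and 0.4 (-0.21), Clec4d 1.8 and 0.2 and Tlr2 2.1 and 0.2. Lyz2, a lysozyme whose near-identical copy Lyz1 may share its reads, scored 2.3 and 1.8 (0.02). Cd14, Nlrp3, Il1b and Lyz1 had none, and neither did Klf4, Hbegf and Edn1, which the study follows as higher, so first introns without repeats carry no value for these 7 genes.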

How the data were processed

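GRO-seq libraries of control and IL-4-treated BMDMs were analysed, 1 per condition, assigned by the treatment label. The authors aligned reads with BWA to mm10 (GRCm38), removed blacklisted regions, and called and annotated transcripts per library with HOMER. The submitters' processing notes name BWA 0.7.10, SAMtools 0.1.19 and HOMER 4.2. The score of each transcript was deposited by the authors rounded to 0.1, and its scaling is not given in the sources used here. Read counts and depth are unknown, so the precision of a single score could not be given beyond its rounding, which is not a replicate error.

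First intron transcripts were entries annotated in intron 1 with no repeat named in the detailed annotation. Distance was the size of the deposited distance to TSS, measured from the midpoint. Hosts, strands and intron bounds came from GENCODE M21. Transcripts overlapping by 1 bp or more on a strand across libraries formed a locus, and loci and genes took their highest score. Genes were those named by the annotation for the nearest start, which is not always the host of the intron. Ratios were centred on the median over all loci (or over genes valued by all transcripts) and called at 2-fold. With 1 library per condition no test was made. Wilson and order-statistic 95% intervals cover transcripts within a library. The locus and call steps were tested on simulated data. Promoter sequence was from RefSeq (GRCm38.p6).

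Named were genes of the hand-chosen lists that held such a transcript (1 item is not reported here), the genes the study's text follows, the 5 largest increases and decreases of loci scoring at least 1, the 5 highest transcripts and the 5 genes with most transcripts in each library. Ties in the locus ranking went to the larger score. The members and lists were chosen with earlier results of these data known. Cluster lists are the study's symbols from RNA-seq libraries, not analysed here. Alternatives were a minimum score, equal numbers of transcripts, repeats counted, a 50% overlap, other centrings, the rounding range and other gene values. Limiting to the host's strand, valuing genes by any transcript of a locus, and recounting lists were chosen after seeing the data. Python 3.11.15, pandas 2.3.3, numpy 2.4.6, SciPy 1.17.1 and matplotlib 3.10.9 were used.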

Additional observations from a re-analysis of the deposited data

How the results depend on the processing

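Each condition had 1 library, so culture-to-culture variation, depth and batch cannot be told apart from the treatment, and low scores stand on 1 or 2 steps of the rounding. No paired analysis was possible because each condition has 1 library and no test was made. With a score of at least 0.3 in both libraries, the median distances of control and IL-4 were 2593 and 1680.5 bp, the share without a counterpart 42.4% and 30.2%, the IL-4 share of transcripts 18.1%, loci numbered 125 higher and 100 lower, and genes 125 higher and 98 lower. The order of the libraries turned for both distance and counterparts. In equal numbers of the highest-scoring transcripts (21561 a library) the median distances were 2703 and 1838 bp, again in the opposite order. With repeats counted, shares were 25.1% and 25.8%, median distances 5656 and 6036.5 bp, the control share without a counterpart 36.7%, and loci 676 higher and 762 lower. With an overlap of 50% of the shorter transcript, 37.3% and 48.4% lacked a counterpart. Without centring, 984 loci and 684 genes were lower. Over the whole rounding range, 128 loci were higher and 94 lower, and 156 genes higher and 124 lower. By the transcript nearest the TSS, 705 genes were lower. On the host's strand alone, a limit chosen after seeing the data, shares were 15.4% and 16.5% and median distances 3551 and 4197 bp. The other 25 values moved by less than their interval or by less than 1.5 times. The gains in number in Clusters B and C and the loss in Cluster E were also recounted, after the data were seen. At a score of at least 0.3 the ratios were 5.19, 2.55 and 0.312 beside 0.868 over all genes, and for later introns 7.62, 3.88 and 0.778 beside 1.27.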
